A study of Rattus norvegicus with 36 samples.

Results

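The genes Fabp4, Fabp5, Plin2, Lpl, Pparg, Nr1h3, Abca1, Abcg1 and Apoe carry lipid into macrophages, store it, sense it and hand it out again, and their RNA was followed in rat lung after silica exposure. They were chosen by name, with earlier results of these data known, as 9 genes of this route among the 25597 gene names on the array. All 9 were tested. Female Sprague Dawley rats aged 13 weeks received a single endotracheal instillation of DQ-12, a ground crystalline silica (quartz), at 10 mg per rat in saline, or saline alone as control. Separate groups of 6 control and 6 DQ-12 rats were studied 1 day (D1), 30 days (D30) and 180 days (D180) later, 36 rats in all, with 1 array per rat. RNA came from the whole accessory lobe of the lung and not from sorted or lavaged cells, so a lower signal from fewer cells of a type and one from less RNA per cell cannot be told apart. The DQ-12 was given as 1 dose by a liquid bolus, and the methods describe regrinding of the powder with tungsten carbide tools before use.

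Alveolar macrophages clear surfactant from the air spaces, and a macrophage that takes up more lipid than it can burn or export stores it in droplets and becomes a foam cell. Lipid enters through scavenger receptors or after lipase action, fatty acids are carried in the cytoplasm by binding proteins, and esters are kept in droplets under a perilipin coat. The nuclear receptors PPARγ and LXRα sense fatty acids and oxysterols and are known to switch on the exporters ABCA1 and ABCG1, which load cholesterol onto apolipoproteins such as apolipoprotein E. None of the 9 genes is restricted to macrophages. Fabp4, Lpl and Pparg are also known from fat cells and endothelium or muscle, and Plin2, Abca1 and Apoe from alveolar epithelium or fibroblasts.

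What the arrays read is a probe of 60 bases per gene, or 2 probes for Abca1, Abcg1, Fabp5 and Lpl. The probes below belong to 3 genes that were higher at D180 and to Abca1, which was lower at D1. Coordinates are those of the array design on the rat build rn4. The Fabp4 probe lies at chr2:93536175-93538589 on the plus strand and covers 2415 bases of genome, so it crosses at least 1 intron. The Plin2 probe lies at chr5:105719064-105719123, the Apoe probe at chr1:79003795-79003854 and the second Abca1 probe at chr5:70493613-70493672, all on the minus strand.
Fabp4: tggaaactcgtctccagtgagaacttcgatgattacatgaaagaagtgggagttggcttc
Plin2: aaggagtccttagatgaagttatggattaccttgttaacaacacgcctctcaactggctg
Apoe: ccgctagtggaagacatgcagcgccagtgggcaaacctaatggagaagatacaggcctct
Abca1 (second probe): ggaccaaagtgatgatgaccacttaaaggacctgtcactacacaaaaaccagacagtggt

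The promoter of Abca1 is shown because LXRα, bound with its partner RXR, is known to act there through a DR4, a direct repeat of the half-site AGGTCA with 4 bases between the copies. The line gives the 250 bases before the RefSeq start of the gene on another build, GRCr8, at chr5:72596474-72596723 on the minus strand. Capitals mark the closest match to a DR4, on the opposite strand at positions −70 to −55 from the start, with 3 mismatches.
Abca1 promoter: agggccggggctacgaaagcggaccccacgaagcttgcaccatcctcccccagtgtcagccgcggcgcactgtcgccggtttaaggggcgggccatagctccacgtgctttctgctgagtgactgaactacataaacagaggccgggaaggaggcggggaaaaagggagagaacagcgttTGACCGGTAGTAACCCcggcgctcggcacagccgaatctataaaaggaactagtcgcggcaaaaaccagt
RefSeq gave 9 promoter windows, each of 250 bases before and 50 after a start, for 5 of the genes (Plin2, Pparg, Nr1h3, Abca1 and Apoe). Both strands were searched. With at most 2 mismatches, a DR4 stood in 2.93% of 33469 rat promoter windows and a DR1 (the same repeat with 1 base between the copies, the form PPARγ binds) in 3.77%, and neither stood in any of the 9 windows. The exact half-site stood in 16.2% of all windows and in 0 of the 9. With 3 mismatches, a setting added after the first search, a DR4 stood in 21.9% of all windows and in 1 of the 9, and a DR1 in 24.9% and in 2 of the 9. Either repeat contains the half-site, so matches to them can overlap with matches to it. A match is a run of letters and not a measured binding site.

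Values are log2 of the background-corrected probe signal after quantile normalization, and a difference is DQ-12 minus control on that log2 scale with its standard error (SE) from limma. "Changed", "rose" and "fell" mean an adjusted p under 0.05 (limma, Benjamini-Hochberg over all 23940 genes tested), and a differentially expressed gene (DEG) also had a fold of at least 2. Between 51.4% and 75.5% of probes were well above background on each array, and all 9 genes were so on all 36 arrays. At D1 the 6 DQ-12 arrays shared a scan date with only 1 control array, while the other 5 control arrays had been scanned on other dates. At D30 and D180 some scan dates held both groups. Values within a scan date are given where that matters. Control rat 4 at D30 stood apart from its group for Fabp4 and Fabp5, and both are given with and without it.

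The 9 genes moved in different directions at different times. Shares of all genes stand beside the counts as a description, since the 9 were chosen with earlier results of these data known. At D1, 5 of 9 changed, 1 up (Fabp4) and 4 down (Lpl, Pparg, Abca1 and Abcg1), where 16.2% of all genes changed, 7.58% of them upwards and 8.62% downwards as shares of all genes tested. At D30, 2 of 9 changed (Fabp4 and Fabp5, both up), against 3.98% of all genes, 2.74% upwards and 1.24% downwards. That background share rests on 954 genes, and leaving out 1 rat of D30 moved that count to between 557 (without DQ-12 rat 1) and 1779 (without DQ-12 rat 5). At D180, 4 of 9 changed (Fabp4, Fabp5, Plin2 and Apoe, all up), against 16.8%, 7.82% upwards and 9% downwards. DEGs numbered 0 of 9 at D1 (the largest fold was 1.92, for Abca1), 2 at D30 (Fabp4, Fabp5) and 2 at D180 (the same genes), against 3.07%, 1.05% and 3.63% of all genes. Control and DQ-12 rats did not overlap for 5 genes at D1, 0 at D30 and 2 at D180, against 11.2%, 2.36% and 7.31% of all genes. Nr1h3 was the gene that changed at no time. An exact permutation test of 6 against 6 rats (2-sided, unadjusted, smallest p possible 0.00216) gave p between 0.00216 and 0.013 for the 11 calls. It also gave an exact p under 0.05 for 4 differences that were not called, Fabp5 at D1 (0.00216), Nr1h3 at D1 (0.0108), Plin2 at D30 (0.026) and Apoe at D1 (0.0325).

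**Figure D1:**
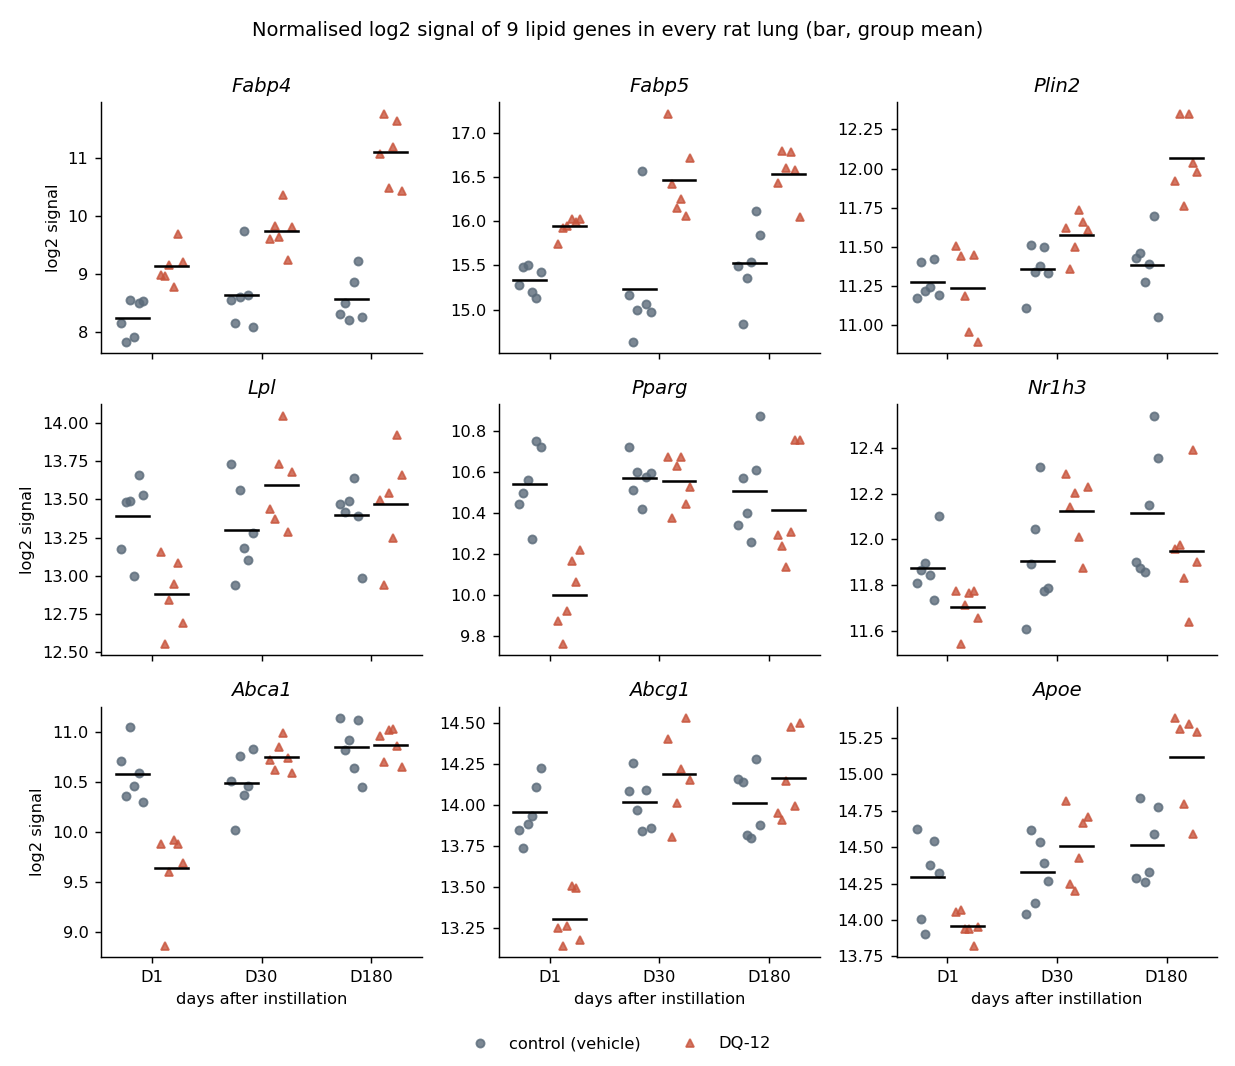
Log2 normalized signal (vertical axis, a range of its own in each panel) of the 9 genes in every rat, in control (circles) and DQ-12 (triangles) groups at D1, D30 and D180 (horizontal axis), with each point 1 rat and the bar the group mean. Fabp4 in DQ-12 rats at D180 lies between 10.42 and 11.76, above all controls, and Abca1 in DQ-12 rats at D1 lies between 8.86 and 9.92, below all controls.

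Fabp4 encodes the fatty acid binding protein of fat cells and macrophages, which carries fatty acids through the cytoplasm. Its log2 signal at D1 ran from 7.82 through a median of 8.32 to 8.54 in controls and from 8.77 through 9.06 to 9.69 in DQ-12 rats. At D30 controls ran from 8.08 (median 8.57) to 9.74 and DQ-12 rats from 9.23 (median 9.72) to 10.35. At D180 controls ran from 8.21 (median 8.40) to 9.22 and DQ-12 rats from 10.42 (median 11.13) to 11.76. All 6 DQ-12 rats stood above all 6 controls at D1 and at D180, while at D30 the groups overlapped through 1 high control. The rise was 0.88 ± 0.25 (SE, adjusted p = 0.0131) at D1, 1.12 ± 0.25 (adjusted p = 0.00633, 2.17-fold) at D30 and 2.53 ± 0.25 (adjusted p = 5.46e-09, 5.78-fold) at D180. The D180 rise exceeded the D1 rise by 1.65 (adjusted p = 0.00484), and it exceeded the D30 rise by 1.42 with an adjusted p of 0.0674.

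The Fabp4 calls at D1 and D30 depended on how scan date and slide were treated, and the call at D180 did not. At D1 scan date and exposure nearly coincide, so their effects cannot be told apart. Within the scan date shared at D1, the 6 DQ-12 rats averaged 0.58 above the single control, and with scan date as a fixed block the D1 call ended (adjusted p = 0.617), as it did with slide as a fixed block (adjusted p = 0.441). At D30 the difference was 0.88 within a scan date of 4 controls and 1 DQ-12 rat and 0.67 within one of 2 controls and 5 DQ-12 rats, and the call ended with scan date as a fixed block (0.75, adjusted p = 0.136). On the slide that held control rat 4 and 2 DQ-12 rats, the difference was −0.04, while on the other 2 slides with both groups it was 0.84 and 1.34. Leaving out control rat 4 gave a D30 rise of 1.34 (adjusted p = 0.00038). At D180 the difference within the scan date of 3 controls and 3 DQ-12 rats was 2.64, and the rise stayed between 2.21 and 2.77 with an adjusted p of at most 0.0188 in every alternative run.

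Fabp5 encodes the epidermal fatty acid binding protein, which macrophages and alveolar type 2 cells also make. At D1 the log2 signal ran from 15.13 (median 15.36) to 15.51 in controls and from 15.75 (median 15.97) to 16.03 in DQ-12 rats. At D30 it ran from 14.64 (median 15.03) to 16.57 and from 16.06 (median 16.33) to 17.22, and at D180 from 14.83 (median 15.52) to 16.12 and from 16.05 (median 16.59) to 16.79. The groups were apart at D1, yet the D1 difference of 0.60 ± 0.23 had an adjusted p of 0.0639 in the fit of all 36 arrays. In a fit of the D1 arrays alone its adjusted p was 0.00119, and without control rat 4 of D30 it was 0.0141. Of 16 alternatives that left out no rat, 5 gave a call. Within the scan date shared at D1, the 6 DQ-12 rats averaged 0.44 above the single control. Within the slide shared at D1, 4 DQ-12 rats averaged 0.40 above that control. Fabp5 rose by 1.23 ± 0.23 at D30 (adjusted p = 0.000718, 2.35-fold) and by 1.01 ± 0.23 at D180 (adjusted p = 0.00144, 2.01-fold). Within scan dates the D30 differences were 1.1 and 0.76, and the D180 difference was 1.15 in the scan date of 3 and 3 rats. At D30 the difference was 0.39 on the slide that held control rat 4 and 2 DQ-12 rats. On the other slides with both groups it was 1.20 and 1.28. The D30 rise was 1.5 without control rat 4 (adjusted p = 1.74e-06), and the D180 call ended with slide as a fixed block (0.89, adjusted p = 0.191). The second Fabp5 probe gave 0.44, 0.96 and 1.26 at the 3 times. The D30 calls of Fabp4 and Fabp5 also ended when each time point was fitted alone (adjusted p = 0.0576 and 0.0675).

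Control rat 4 at D30 was the highest of its group for both genes. Its summed signal of adipocyte markers was 12.41 on the log2 scale against 11.53 to 12.10 in the other 5 controls, and that of heart and skeletal muscle markers was 16.28 against 15.33 to 15.76. This rat shared a slide with DQ-12 rats 1 and 6 of D30. Their adipocyte sums (12.57 and 12.36) and Fabp5 signals (17.22 and 16.71) were also the highest of their group, while their Fabp4 signals (9.59 and 9.81) were not. Their heart and skeletal muscle sums were 15.18 and 15.69, below that of control rat 4. Whether these markers or the slide have a part in the Fabp4 and Fabp5 signals of control rat 4 was not tested.

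Plin2 encodes perilipin 2, the droplet coat protein that marks lipid-filled macrophages. At D1 the log2 signal ran from 11.17 (median 11.23) to 11.42 in controls and from 10.89 (median 11.31) to 11.51 in DQ-12 rats, and at D30 from 11.11 (median 11.36) to 11.51 and from 11.36 (median 11.61) to 11.73. At D180 it ran from 11.05 (median 11.41) to 11.70 in controls and from 11.76 (median 12.01) to 12.35 in DQ-12 rats. The groups overlapped at D1 and D30 and stood apart at D180. The differences were −0.04 ± 0.12 (adjusted p = 0.884) and 0.22 ± 0.12 (adjusted p = 0.374) at D1 and D30, and at D180 Plin2 rose by 0.68 ± 0.12 (adjusted p = 5.18e-05, 1.60-fold). The change at D180 exceeded that at D1 by 0.72 (adjusted p = 0.00851). Within scan dates at D180 the difference was 0.65 in 3 and 3 rats and 0.57 in 1 and 1, and the call ended with slide as a fixed block (0.52, adjusted p = 0.179).

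Lpl encodes lipoprotein lipase, which frees fatty acids from circulating and macrophage-bound lipoproteins. Its log2 signal at D1 ran from 13.00 (median 13.49) to 13.66 in controls and from 12.55 (median 12.89) to 13.16 in DQ-12 rats, so that the groups overlapped through 1 low control. Lpl fell by 0.51 ± 0.16 at D1 (adjusted p = 0.024), and the second probe gave −0.44 (adjusted p = 0.044 over all probes). The call ended without control rat 5 of D1 (adjusted p = 0.063), without DQ-12 rat 2 (0.0742) or without DQ-12 rat 6 (0.0529), under 75th percentile scaling (0.0722) and with scan date as a fixed block (0.402). At D30 and D180 the differences were 0.29 ± 0.16 (adjusted p = 0.386) and 0.07 ± 0.16 (adjusted p = 0.842). The change at D30 exceeded that at D1 by 0.80, with an adjusted p of 0.0501.

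**Figure D2:**
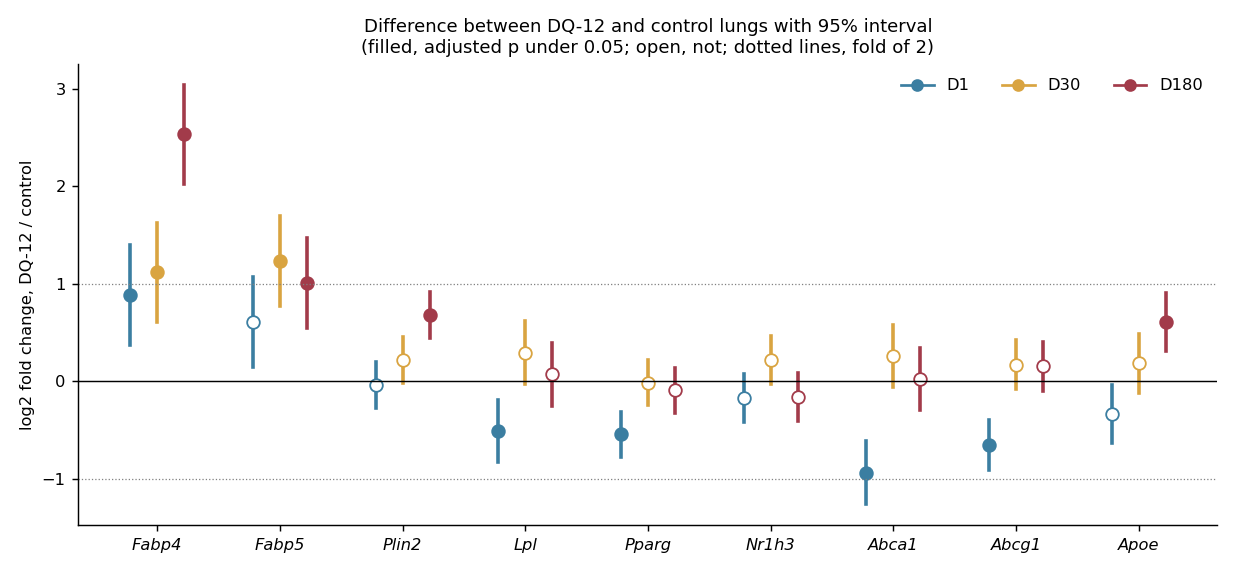
Log2 difference between DQ-12 and control lungs (vertical axis) for the 9 genes (horizontal axis) at D1, D30 and D180, 6 rats per group, with lines for the 95% confidence interval from limma, filled points for an adjusted p under 0.05 and dotted lines at a fold of 2. Fabp4 lies at 2.53 at D180, while Abca1, Abcg1, Pparg and Lpl are filled and lie below 0 at D1.

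Pparg encodes PPARγ, the fatty acid receptor that alveolar macrophages need to mature and to clear surfactant. At D1 the log2 signal ran from 10.27 (median 10.53) to 10.75 in controls and from 9.76 (median 9.99) to 10.22 in DQ-12 rats, with all 6 DQ-12 rats below all 6 controls. Pparg fell by 0.54 ± 0.11 (adjusted p = 0.000942, 1.46-fold). The difference was −0.56 within the shared scan date, where the call ended with scan date as a fixed block (adjusted p = 0.0946). At D30 the groups ran from 10.42 to 10.72 and from 10.38 to 10.68, and at D180 from 10.26 to 10.87 and from 10.14 to 10.76. These ranges nearly coincide, and the differences were −0.02 (adjusted p = 0.984) and −0.09 (adjusted p = 0.658), each ± 0.11. The 95% interval at D180 was −0.32 to 0.14.

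Nr1h3 encodes LXRα, the oxysterol receptor. At D1 its log2 signal ran from 11.73 (median 11.85) to 12.10 in controls and from 11.54 (median 11.74) to 11.78 in DQ-12 rats, at D30 from 11.61 (median 11.84) to 12.32 and from 11.87 (median 12.17) to 12.29, and at D180 from 11.86 (median 12.02) to 12.54 and from 11.64 (median 11.93) to 12.39. The groups overlapped at each time. The differences were −0.17, 0.22 and −0.16, each ± 0.12, with adjusted p of 0.381, 0.404 and 0.422 and with 95% intervals between −0.42 and 0.47.

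Abca1 encodes the exporter that moves cholesterol and phospholipid to lipid-poor apolipoproteins. At D1 the log2 signal ran from 10.30 (median 10.53) to 11.05 in controls and from 8.86 (median 9.79) to 9.92 in DQ-12 rats, with no overlap. Abca1 fell by 0.94 ± 0.16 (adjusted p = 7.09e-05, 1.92-fold). Its second probe, printed above, gave −0.94 as well. The difference was −1.41 within the shared scan date, whose single control, rat 3, was the highest control of D1 (11.05). Abca1 stayed called with scan date or slide as a fixed block, but at D1 those fits rest on that control. Without DQ-12 rat 2, the lowest, Abca1 still fell by 0.78 (adjusted p = 0.000207). At D30 controls ran from 10.02 (median 10.49) to 10.83 and DQ-12 rats from 10.59 (median 10.73) to 10.99, and at D180 from 10.45 (median 10.87) to 11.14 and from 10.65 (median 10.91) to 11.03. Both overlapped, with differences of 0.26 ± 0.16 (adjusted p = 0.457) and 0.02 ± 0.16 (adjusted p = 0.955).

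Abcg1 encodes the partner exporter, which passes cholesterol to mature high-density lipoprotein and whose loss is known to fill alveolar macrophages with lipid. At D1 the log2 signal ran from 13.74 (median 13.91) to 14.23 in controls and from 13.14 (median 13.25) to 13.50 in DQ-12 rats, again with no overlap. It fell by 0.65 ± 0.12 (adjusted p = 0.000328, 1.57-fold), and the second probe gave −1.39 ± 0.24 (adjusted p = 0.000105 over all probes). The difference was −0.58 within the shared scan date, and the call ended with scan date (adjusted p = 0.166) or slide (0.174) as a fixed block. At D30 and D180 the differences were 0.17 ± 0.12 (adjusted p = 0.583) and 0.15 ± 0.12 (adjusted p = 0.481), and the groups overlapped.

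Abca1 and Abcg1 thus differed from control at D1 alone among the times tested, and the change itself differed between times. It was higher at D30 than at D1 by 1.20 for Abca1 (adjusted p = 0.00234) and 0.82 for Abcg1 (adjusted p = 0.0083), and higher at D180 than at D1 by 0.96 (adjusted p = 0.00951) and 0.80 (adjusted p = 0.00579). Over all genes, 2.18% differed between D30 and D1 and 4.55% between D180 and D1. With scan date as a fixed block, adjusted p was 0.053 and 0.058 for Abca1 and 0.188 and 0.279 for Abcg1.

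Apoe encodes apolipoprotein E, a cholesterol acceptor that macrophages secrete. At D1 its log2 signal ran from 13.91 (median 14.35) to 14.62 in controls and from 13.82 (median 13.94) to 14.07 in DQ-12 rats, and at D30 from 14.04 (median 14.33) to 14.62 and from 14.20 (median 14.54) to 14.82. At D180 it ran from 14.26 (median 14.46) to 14.84 in controls and from 14.59 (median 15.30) to 15.39 in DQ-12 rats, with 4 of 6 DQ-12 rats above all controls. The differences were −0.34 ± 0.15 (adjusted p = 0.123) at D1 and 0.18 ± 0.15 (adjusted p = 0.637) at D30, and Apoe rose by 0.61 ± 0.15 at D180 (adjusted p = 0.00333, 1.52-fold). Within scan dates at D180 the difference was 0.87 in 3 and 3 rats and −0.25 in 1 and 1. The change at D180 exceeded that at D1 by 0.94 (adjusted p = 0.00674), and with scan date as a fixed block by 0.54 (adjusted p = 0.572).

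Between D180 and D30 no change differed for any of the 9 genes (limma, 0 called, 3 at an unadjusted p under 0.05), against 0.246% of all genes. In control rats alone, none of the 9 changed from D1 to D30 (0 at an unadjusted p under 0.05) or from D30 to D180 (1, Abca1), where 6.53% and 11.5% of all genes did.

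**Figure D3:**
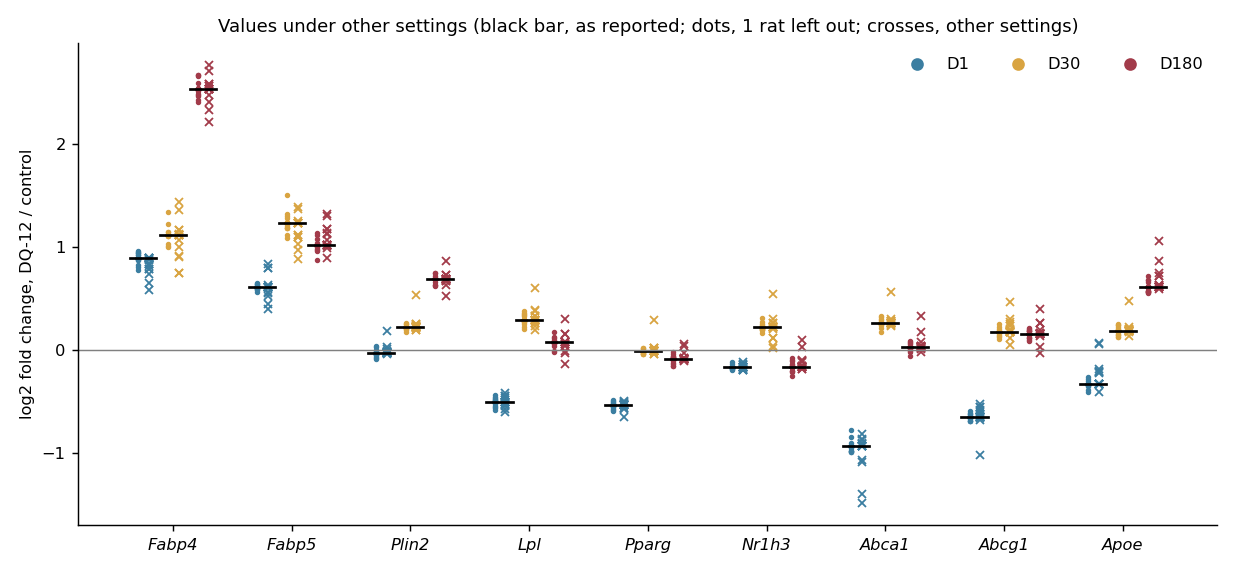
Log2 difference (vertical axis) of each of the 9 genes (horizontal axis) at D1, D30 and D180, with a black bar for the reported value, dots for fits with 1 rat left out and crosses for the other settings. Fabp4 at D180 stays between 2.21 and 2.77, and Abca1 at D1 spreads from −1.49 to −0.78.

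Other genes of the same route were read from 5 lists, in which Cd68, Cidec, Lipe, Plin1, Plin4 and Gpihbp1 also stand among the cell markers described further on. The list counts stand against 16.2%, 3.98% and 16.8% of all genes changed at D1, D30 and D180. Of 16 receptor and uptake genes, 1 rose at D1, 2 at D30 and 6 at D180, where 2 fell. The list's median difference was 0.07, 0.07 and 0.28, against −0.01, −0.02 and −0.03 over all genes. Msr1, the class A scavenger receptor, rose at each time, by 0.90 (adjusted p = 0.000207), 1.37 (1.29e-06) and 1.52 (3.27e-08), with the DQ-12 rats above all controls each time. Cd68, a lysosomal glycoprotein of macrophages, had a difference of 0.14 at D1 (adjusted p = 0.568) and rose by 1.16 at D30 and 1.55 at D180 (adjusted p = 2.89e-06 and 2.28e-09). Lrp8, a receptor for apolipoprotein E, was at 0.69 and 0.70 at D1 and D30 (adjusted p = 0.0565 and 0.121) and rose by 1.26 at D180 (adjusted p = 0.00038). Cd36, the fatty acid and oxidized lipoprotein receptor that PPARγ is known to induce, was measured at −0.10, 0.18 and 0.04, with adjusted p of 0.591, 0.446 and 0.872.

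Of 13 droplet genes tested, 1 rose at D1, 1 rose and 1 fell at D30, and 4 rose and 1 fell at D180 (median differences 0.02, −0.02 and 0.17). Soat1, which esterifies cholesterol for storage, rose by 0.63 at D1 (adjusted p = 0.016) and by 1.12 at D180 (3.05e-05), while at D30 it was at 0.18 (0.739). Hilpda, an inhibitor of droplet lipolysis, rose by 0.48 at D30 (adjusted p = 0.0364) and 1.28 at D180 (1.85e-08). Cidec, a droplet fusion protein of fat cells, fell by 1.02 at D30 (adjusted p = 0.00978). Plin1 was on the array but below the filter.

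Of 12 hydrolysis and lysosomal release genes, 1 rose and 3 fell at D1, 2 rose at D30, and 2 rose and 2 fell at D180 (median differences −0.05, 0.01 and −0.09). Npc2, which hands cholesterol out of the lysosome, rose by 1.05 at D1, 0.68 at D30 and 1.05 at D180 (adjusted p = 6.96e-07, 0.00152 and 4.87e-07), with the groups apart each time. Ces1d, a carboxylesterase, fell by 1.33 at D1 (adjusted p = 2.61e-07) and by 0.45 at D180 (0.048).

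Of 16 regulators and their known targets, 1 rose and 4 fell at D1, none changed at D30 (1 at an unadjusted p under 0.05), and 2 rose and 2 fell at D180 (median differences 0.08, −0.09 and −0.14). Ppargc1a, a coactivator of oxidative metabolism, fell by 1.20 at D180 (adjusted p = 0.0196), with its probe well above background on 5 of 6 control and 3 of 6 DQ-12 arrays. The 5 changed at D1, named here after their values were seen, were Mylip, a ligase that degrades the LDL receptor (−0.95, adjusted p = 0.000122), Srebf1, the driver of fatty acid synthesis (−0.84, 0.000815), the receptors Ppara (−0.76, 0.00348) and Rxrg (−0.69, 0.0162), and Acadl, a fatty acid oxidation enzyme, which rose (0.37, 0.0152). Mylip and Srebf1 are known LXR targets. Lpcat3, another, was at 0.28 at D1 (adjusted p = 0.132, with all 6 DQ-12 rats above all controls). Angptl4, a target of LXR and the PPARs, was at 1.02 (0.153). The activity of LXR was not tested. Of 14 efflux and transfer genes, 1 rose and 2 fell at D1, 1 rose at D30, and 1 rose and 2 fell at D180 (median differences −0.05, −0.05 and −0.03), none with a fold of 2. The changed genes were 21.4%, 7.14% and 21.4% of this list, near the shares of all genes.

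With scan date as a fixed block, the counts of changed genes at D1 became 0 of 16 receptor, 0 of 13 droplet, 1 of 12 hydrolysis, 0 of 16 regulator and 0 of 14 efflux genes. At D180 they became 6, 3, 3, 4 and 1.

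**Figure D4:**
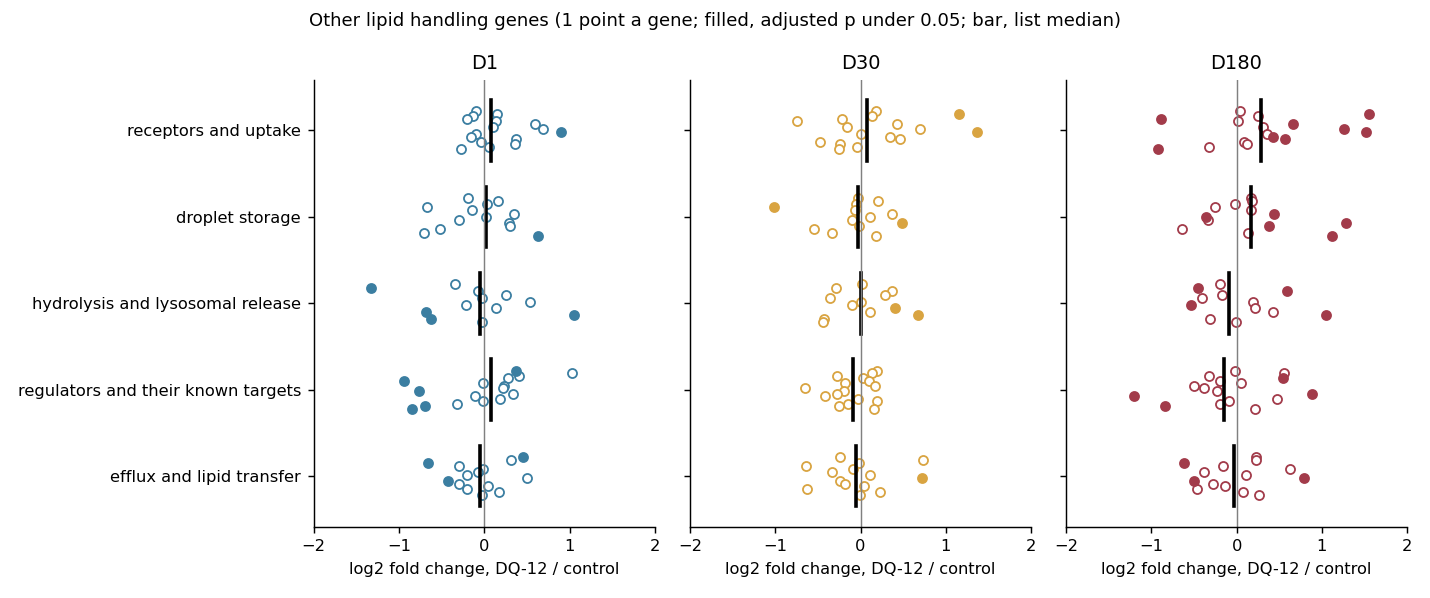
Log2 difference between DQ-12 and control (horizontal axis) for the genes of 5 lists (vertical axis), with 1 panel per time, 1 point per gene, filled points for an adjusted p under 0.05 and a bar at the list median. The list medians lie near 0 and reach 0.28 for the receptors at D180, where Msr1 and Cd68 lie at 1.52 and 1.55.

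Markers of the cells that the lobe holds moved as well, and their part in the results above was not tested. Their counts stand against 16.2%, 3.98% and 16.8% of all genes changed at D1, D30 and D180. Marker counts were not redone with scan date or slide as a block. At D1, where scan date and exposure nearly coincide, their effects on these markers cannot be told apart. Of 16 markers of monocytes and recruited macrophages, 11 rose at D1, 9 at D30 and 11 at D180, where 2 fell. Their summed log2 signal ran from 15.46 to 15.89 in controls and from 16.08 to 16.40 in DQ-12 rats at D1, from 15.23 to 15.62 and from 16.30 to 16.85 at D30, and from 15.73 to 16.28 and from 16.97 to 17.61 at D180, so the groups were apart each time. Lgals3, named as the brightest of them, weighs most in the sum, with D180 means of 15.36 in controls and 16.57 in DQ-12 rats. Itgam rose by 0.96, 0.98 and 2.19 (adjusted p = 0.0125, 0.0323 and 3.2e-07), and Ccr2 rose by 0.89 at D1 and 0.75 at D180 (adjusted p = 0.00411 and 0.0142) and was at 0.06 at D30 (0.962). At D1 these rises stood beside a rise of Fabp4 and falls of Lpl, Pparg, Abca1 and Abcg1, at D30 beside rises of Fabp4 and Fabp5, and at D180 beside rises of Fabp4, Fabp5, Plin2 and Apoe.

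Of 14 alveolar macrophage markers tested, 1 rose at D1, 3 at D30 and 5 at D180, where 3 fell. Their summed signal ran from 14.65 to 14.99 in controls and from 14.53 to 14.76 in DQ-12 rats at D1, from 14.64 to 15.00 and from 14.84 to 15.20 at D30, and from 14.89 to 15.28 and from 15.17 to 15.60 at D180. The groups overlapped at all 3 times. Car4, named as the brightest of them in controls, weighs most in the control sums. Its D180 mean was 13.63 in controls and 12.76 in DQ-12 rats, while that of Cd68 was 12.49 and 14.05. The 3 that fell at D180, named after their values were seen, were Siglec5 (−0.91, adjusted p = 4.69e-05), Car4 (−0.87, 0.000127) and Cd9 (−0.59, 0.00308). Siglec1 rose by 0.79, 2.04 and 1.96 (adjusted p = 0.0229, 1.14e-06 and 3.81e-07). Marco, a defining marker, was well above background on 2, 0 and 2 of 6 control arrays and on 0, 4 and 6 of 6 DQ-12 arrays at D1, D30 and D180. Marco was at −0.27 at D1 (adjusted p = 0.677) and rose by 2.80 at D30 and 2.62 at D180 (3.32e-06 and 1.95e-06), from a control signal near background. Which cells of the lobe the RNA of the 9 genes came from was not measured.

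No adipocyte marker of 13 rose at any time, while 0, 1 and 2 fell (2, 1 and 4 had an unadjusted p under 0.05). Adipoq was at 0.26, 0.43 and −0.34 (adjusted p = 0.788, 0.787 and 0.738), and Lep was well above background on 3, 1 and 4 control arrays and on 0, 0 and 1 DQ-12 arrays. The summed adipocyte signal at D180 ran from 11.98 to 12.53 in controls and from 11.95 to 12.53 in DQ-12 rats, nearly the same range. Cfd, named as the brightest of these markers, weighs most in that sum, with D180 means of 11.75 in controls and 11.84 in DQ-12 rats. Whether fat cells have a part in the Fabp4 rise was not tested. Of 15 endothelial markers 0 changed at D1 (5 at an unadjusted p under 0.05), 1 fell at D30 and 12 fell at D180, where Pecam1 fell by 0.46 (adjusted p = 0.00767) and Cdh5 by 0.58 (0.00277). Their summed signal at D180 ran from 17.98 to 18.08 in controls and from 16.98 to 17.71 in DQ-12 rats.

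Of 12 alveolar type 2 markers, 3 rose and 1 fell at D1, 4 rose at D30, and 5 rose and 1 fell at D180. Sftpc held the top rank on nearly all arrays, where quantile normalization gives one value (18.42), and Sftpb fell by 0.18 at D1 (adjusted p = 0.0495). Both stood well above background on all arrays. Those that rose, named after their values were seen, included Sftpa1, by 0.48, 0.49 and 0.47, and Muc1, by 0.87, 0.75 and 0.94 at the 3 times, and Lamp3 and Sftpd, by 0.75 and 0.66 at D30. The summed type 2 signal ran from 19.62 to 19.77 in controls and from 19.72 to 19.88 in DQ-12 rats at D1, from 19.69 to 19.82 and from 19.90 to 19.99 at D30, and from 19.54 to 19.69 and from 19.64 to 19.93 at D180. The groups were apart at D30 and overlapped at D1 and D180, while Fabp5 rose at D30 and at D180. Sftpc, the brightest marker in this sum, is fixed at 18.42 on nearly all arrays, so the sum moves almost only through the other markers. Of 12 fibroblast markers 4 fell and 1 rose at D1, 1 fell and 1 rose at D30, and 4 fell at D180. Tcf21, a lipofibroblast factor, fell by 0.85 at D1 (adjusted p = 0.000124), beside the D1 falls of Pparg, Lpl and Abca1, and Pdgfra was at −0.35 (adjusted p = 0.207). The summed fibroblast signal at D1 ran from 15.84 to 16.11 in controls and from 15.57 to 15.88 in DQ-12 rats. Of 12 neutrophil markers 1 rose and 1 fell at D1, 2 rose at D30 and 4 at D180, where S100a8 rose by 1.56 and S100a9 by 2.57 (adjusted p = 1.68e-05 and 4.88e-09). Of 12 heart and skeletal muscle markers none changed at D1 or D30 (0 and 4 at an unadjusted p under 0.05), and 4 fell at D180, Myh6 by 0.60 (adjusted p = 0.0128), and Myh7 was at −0.50 (0.0529).

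**Figure D5:**
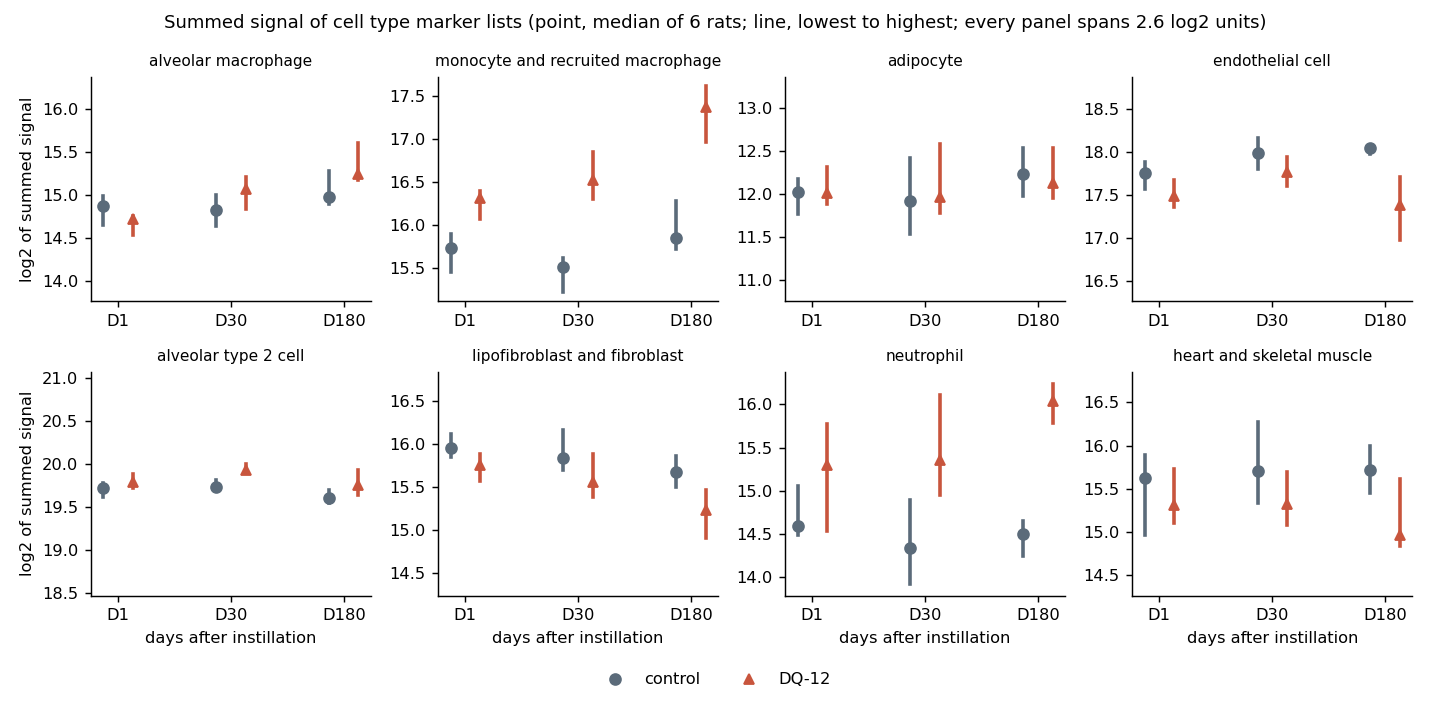
Log2 of the summed signal (vertical axis) of 8 marker lists at D1, D30 and D180 (horizontal axis), with a point for the median of 6 rats and a line from the lowest to the highest. The monocyte and recruited macrophage sums of DQ-12 rats lie above all controls at each time, and the adipocyte sums of the groups overlap.

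The genes whose log2 signal followed each of the 9 most closely over the 36 arrays were found by Pearson's r, given as a description, since arrays share groups and scan dates. For Fabp4 they were Mreg (r = 0.94), Srxn1 (0.93) and LOC689757 (0.93), for Fabp5 Tec and H2afj (each 0.88), and for Plin2 Sgpl1 (0.86), Lpo (0.85) and Sidt2 (0.84). For Abca1 they were Dmxl2 (0.86), Plagl2 (0.85) and Rnf169 (0.84), for Abcg1 Laptm5 (0.80), Mrgprx3 (0.80) and Optn (0.79), and for Pparg Tnfrsf8 (0.84), Bicral (0.79) and Akap10 (0.79). For Lpl they were Col17a1 (0.79), Cd200r1l (0.79) and Tbca (0.78), for Nr1h3 Uba3 (0.82), Tab3 (0.80) and Mfsd8 (0.80), and for Apoe Cd74 (0.81), LOC500180 (0.79) and RGD1563231 (0.79). Once each group's mean was subtracted, so that only the spread among rats of a group was left, the closest gene was another one for each of the 9, and of the 3 closest only Tbca, for Lpl, was found both ways. They were Ndufa7 (0.74), Aqp3 (0.71) and LOC102548728 (0.70) for Fabp4, Naa38 (0.85), Snapin (0.82) and Romo1 (0.81) for Fabp5, and Ankrd45 (0.68), Ech1 (0.64) and LOC102554948 (0.63) for Plin2. For Lpl they were Ncoa4 (0.76), Tbca (0.76) and Snrpg (0.75), for Pparg Tent5b (0.72), Ggps1 (0.70) and Prc1 (0.70), and for Nr1h3 Ufc1 (0.80), Nudt5 (0.80) and Tmem70 (0.79). For Abca1 they were Trrap (0.75), Tceal1 (0.72) and Ascl2 (0.72), for Abcg1 Dnase1l1 (0.71), Pla2g2d (0.68) and Dock8 (0.67), and for Apoe Usp43 (0.76), Uggt1 (0.75) and Cnot10 (0.75).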

How the data were processed

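RNA from the accessory lobe was labelled with Cy3 and hybridised to 1-colour Agilent rat arrays by the authors, and Feature Extraction 12.0.1.1 gave the deposited spot intensity. The authors' deposited log2 values differed from log2 intensity minus each array's 75th percentile and each probe's median by a median of 0.00177 and served as an alternative. The authors' methods name a quantile filter, quantile normalization, batch correction and limma. The batch variable is not given in the sources used here.

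Here, log2 of the processed signal, without outlier-flagged spots, was averaged per probe. Probes above the 95th percentile of 308 negative controls on at least 6 arrays were kept (42200 of 45598) and quantile normalized, and a gene's brightest probe stood for it. limma 3.58.1 in R 4.3.3 fitted 6 group means over 36 arrays, with Benjamini-Hochberg adjustment over 23940 genes per comparison. A DEG also had a fold of at least 2. The number of arrays limits the precision. The code was tested on simulated data. Named were the 9 genes, list genes that were DEGs at any time, the first 2 tested markers of each list, and the 3 genes most alike each of the 9, also after group means were subtracted (1 of these is not reported here). Alternatives changed the signal column, scaling, filter, probe choice, samples, moderation, blocks, fold threshold and the rats left out. The genes and lists were chosen with earlier results of these data known. Motifs were searched in RefSeq promoters (GRCr8), and rn4 annotation was not used here.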

Additional observations from a re-analysis of the deposited data

Results flagged for a closer look

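In 4 of 54 groups of 6 rats, 1 rat stood far from the others by Dixon's criterion, which chance meets in about 1 of 20 groups. Control rat 4 at D30 had a Fabp4 log2 signal of 9.74, against 8.63 for the next highest, and a Fabp5 signal of 16.57, against 15.16. DQ-12 rat 1 at D1 had a Fabp5 signal of 15.75, against 15.93 for the next lowest, and was still above all controls. DQ-12 rat 2 at D1 had an Abca1 signal of 8.86, against 9.60.

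The log2 difference between DQ-12 and control changed with time in 7 of 27 tests of 9 genes (limma interaction). For Fabp4 it was higher at D180 than at D1 by 1.65 (adjusted p = 0.00484), from 0.88 to 2.53. For Plin2 it was higher by 0.72 (adjusted p = 0.00851), from −0.04 to 0.68, and for Apoe by 0.94 (0.00674), from −0.34 to 0.61. For Abca1 and Abcg1 it moved from below 0 at D1 (−0.94 and −0.65) to values near 0. The signed difference was higher at D30 than at D1 by 1.20 for Abca1 (adjusted p = 0.00234) and 0.82 for Abcg1 (0.0083), and at D180 than at D1 by 0.96 (0.00951) and 0.80 (0.00579).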

How the results depend on the processing

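Of 2781 differences of the 9 genes under alternatives, 52 lost and 42 gained significance, no called one reversed, and 58 that were not called changed sign. Counts of the 9 genes that moved by over 1.5 times follow, and the cause was not tested. Changed genes at D1 were 5, but 0 without normalization, 1 with scan date and 2 with slide as a fixed block, and 3 with scan date as a random block. At D30 they were 2, but 0 without normalization or with each time point alone and 1 with either fixed block, and at D180 they were 4, but 1 without normalization and 2 with slide as a fixed block. DEGs at D1 were 0, but 1 with the mean over probes or any of the 4 blocks and 3 at a fold of 1.5. At D30 they were 2, but 1 with normexp or either random block and 0 without normalization, with each time point alone, either fixed block or treat. At D180 they were 2, but 1 without normalization, with slide as a random block or treat, and 4 at a fold of 1.5. Genes whose change differed between D30 and D1 were 2, but 0 without normalization or with either fixed block, 4 with the filter on well above background and 5 with array weights. Between D180 and D30 they were 0, but 1 (Fabp4) with normexp, that filter, trended robust moderation, array weights, scan date as a fixed or random block, slide as a random block or the replicate block. Between D180 and D1 they were 5, but 0 without normalization or with slide as a fixed block and 1 with a fixed block for scan date. Differences between times could not be had with each time point alone.

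Leaving out 1 rat gave 4 to 6 changed genes at D1, 2 at D30 and 4 at D180, and 0, 1 to 2 and 1 to 2 DEGs. The D30 DEG count was 1 without DQ-12 rat 4 of D30, and the D180 count was 1 without control rat 2 or 3 or DQ-12 rat 2, 3 or 4 of D180. It gave 2 to 3, 0 to 1 and 5 to 6 differences between D30 and D1, D180 and D30, and D180 and D1. The 0 became 1 (Fabp4) without DQ-12 rat 3 or 6 of D180.

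With scan date and slide as fixed blocks in turn, changed receptor genes were 0 and 0 at D1 (main 1) and 2 at D180 with slide (main 8). Droplet genes were 0 and 0 at D1 (main 1), 0 and 0 at D30 (main 2) and 3 and 1 at D180 (main 5), with 0 DEGs at D30 under either (main 1) and 1 at D180 with slide (main 2). Hydrolysis genes were 1 and 2 at D1 (main 4), 1 at D30 with scan date (main 2) and 0 at D180 with slide (main 4), with 0 DEGs at D1 (main 2) and D180 (main 1) under either. Regulators were 0 and 1 at D1 (main 5) and 0 at D180 with slide (main 4), with 1 DEG at D1 (main 0) and 0 at D180 (main 1) with slide. Efflux genes were 0 at D1 (main 3) and D30 (main 1) under either, and 1 and 0 at D180 (main 3), with 1 DEG at D180 with scan date (main 0).

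The labels do not say whether replicate numbers pair the rats, and the rats were treated as unpaired. The correlations that follow cannot exclude a pairing. In 18 same-numbered pairs, deviations from the group means correlated between −0.132 and 0.219, and 6 exceeded 0.1. With the replicate block, Pparg between D30 and D1 gained a call (adjusted p = 0.0431), as did Fabp4 between D180 and D30 (0.0179).

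Over all genes, changed genes ran from 268 to 5635 at D1 (main 3877), 129 to 3458 at D30 (main 954) and 458 to 4519 at D180 (main 4026), and DEGs from 91 to 1842 (main 736), 30 to 614 (main 252) and 133 to 2307 (main 869). Leaving out 1 rat of D30 moved the D30 count of changed genes by over 1.5 times in 4 cases, to 627 and 629 without control rats 1 and 2, 557 without DQ-12 rat 1 and 1779 without DQ-12 rat 5. Without normalization the median of all genes moved to 0.25 at D30 and 0.09 at D180. At D1, scan date and exposure nearly coincide, so blocked fits there rest on 1 control array. Sftpc is at the top rank and can show no difference.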
